A study of Rattus norvegicus with 6 samples.

Results

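The 3 genes described here encode the CXCR4 chemokine axis: *Cxcr4* and *Ackr3* for its receptors and *Cxcl12* for its ligand. They were taken by symbol from expression tables of 17315 genes, and each symbol matched 1 row, NM_022205 for *Cxcr4*, NM_053352 for *Ackr3*, and NM_001033882, NM_001033883 and NM_022177 together for *Cxcl12*, whose isoforms are therefore not told apart. The tables hold RNA-seq of HCN cells, adult rat hippocampal neural stem cells (NSCs) grown as a cloned line, so that both groups stem from 1 line. One group of 3 samples (siControl) received a Stealth RNAi control duplex and the other group of 3 (siDerl1) a single Stealth duplex against *Derl1*, which encodes Derlin-1, an endoplasmic reticulum (ER) membrane protein that helps to remove misfolded proteins. All 6 samples were reverse transfected and given 2 days of proliferation medium followed by 2 days of quiescence medium. The latter holds bFGF (10 ng/mL) and BMP4 (50 ng/mL), a factor that takes these cells out of cycle. The paper reports a larger share of proliferating cells in siDerl1 than in siControl NSCs in such medium. The part of that in the differences below was not tested. The labels number the samples 1 to 3 in each group and do not say that the samples are separate cultures, so p values here measure only the spread between these samples, which may be technical.

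CXCL12 is a secreted chemokine, and CXCR4 is the receptor through which it activates Gi proteins, actin remodelling and directed migration. ACKR3, formerly CXCR7, is an atypical receptor that binds the same ligand, signals mainly through arrestins rather than G proteins, and takes up CXCL12 for degradation, which shapes the gradient that CXCR4-bearing cells follow. In the dentate gyrus the axis is known for placing granule neurons and their progenitors and for maintaining NSCs, and the study is concerned with how Derlin-1 acts on NSC quiescence and on where newborn neurons settle.

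Expression is given as TPM, a measure of transcript abundance that is corrected for transcript length and sums to 1000000 in each sample. TPM keeps no read numbers, so the depth behind a value is unknown. Fold changes below are differences of log2(TPM + 1) between group means, siDerl1 minus siControl, which understate the change of low genes, and were tested with limma over the 10331 genes whose mean TPM reached 1. *Derl1* itself was at 122, 132 and 128 TPM in siControl samples 1, 2 and 3 and at 44.9, 70.8 and 74.0 TPM in siDerl1 samples 1, 2 and 3. Between 11641 and 11808 genes had a value above 0 in a sample, and along the first principal component, with 55.7% of the variance, both samples numbered 1 lay apart from the others. Of 13 NSC markers 10 were at 10 TPM or more in every sample and *Prom1* was at 0, with *Sox2* between 445 and 565 TPM and *Nes* between 99.4 and 137 TPM. Markers of the oligodendrocyte lineage were abundant too, with *Sox10* between 541 and 787 TPM and a summed level of 1329 to 1611 TPM in siControl and 1268 to 1733 TPM in siDerl1 samples over the 8 genes of that list, 6 of which were at 10 TPM or more in every sample and *Mog* at 0. The samples thus expressed most of the NSC markers and also glial lineage genes.

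In NSCs given quiescence medium both CXCL12 receptors were at higher levels than their ligand in every sample, *Cxcr4* by far more than *Ackr3*. *Ackr3* was the only one of the 3 whose groups did not overlap, though its difference did not pass adjustment over all genes. *Cxcr4* was a well-expressed gene at about the same mean level with and without the knockdown. *Ackr3* was a low-expressed gene, and lower in each siDerl1 sample than in any siControl sample. *Cxcl12* lay near the lower limit of what was tested.

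*Cxcr4* was at 60.7, 82.1 and 98.8 TPM in siControl samples 1, 2 and 3 and at 80.4, 72.7 and 84.5 TPM in siDerl1 samples 1, 2 and 3. Every siDerl1 value thus fell within the range that the siControl samples spanned, and the siControl samples were the more spread. The means were 80.5 ± 19.1 TPM (SD, n = 3) in siControl and 79.2 ± 6.01 TPM (SD, n = 3) in siDerl1 NSCs. The coefficient of variation, the SD as a percentage of the mean, was 23.7% in siControl samples, larger than that of 95.9% of the 3487 genes of like level, whose median was 6.85%. In siDerl1 samples it was 7.59%, close to the median of 7.60% over 3509 genes of like level. In each sample *Cxcr4* ranked between 1976 and 3187 among the genes above 0, in the upper 16.9% to 27.3%.

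The log2 fold change of *Cxcr4* was 0.00 with a 95% interval of −0.39 to 0.40, that is from 0.762-fold to 1.32-fold (limma, adjusted p = 0.999). Comparing samples of the same number, with the replicate number as a block, narrowed the interval to −0.25 to 0.25, or 0.840-fold to 1.19-fold (adjusted p = 0.996). A difference in *Cxcr4* mRNA within these bounds was not detectable with 3 samples a group. The pairs of the same number differed by 0.40, −0.17 and −0.22, so that *Cxcr4* was higher in siDerl1 sample 1 than in its counterpart and lower in the others. The differences of *Cxcr4* between sample numbers did not pass an F-test in the blocked limma fit (adjusted p = 0.214), which 10.6% of all genes tested did.

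*Ackr3* was at 6.12, 7.59 and 5.98 TPM in siControl samples 1, 2 and 3 and at 3.58, 4.37 and 3.67 TPM in siDerl1 samples 1, 2 and 3. Every siDerl1 sample was below every siControl sample, and in both groups sample 2 was the highest. The means were 6.56 ± 0.892 TPM (SD, n = 3) and 3.87 ± 0.433 TPM (SD, n = 3), a ratio of 0.590. The spread within groups was modest for a gene at this level, with a coefficient of variation of 13.6% in siControl samples, where the median of 1751 genes of like level was 16.7%, and of 11.2% in siDerl1 samples, where it was 23.6% over 1280 genes. Because these are bulk samples, fewer cells that express *Ackr3* and less *Ackr3* RNA per cell cannot be told apart.

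The log2 fold change of *Ackr3* was −0.63 (standard error 0.16, 95% interval −1.02 to −0.25), or a fold between 0.495 and 0.843. It did not pass limma's adjustment over all genes (unadjusted p = 0.00585, adjusted p = 0.704), where 0 genes or 0% of those tested did, although 276 genes were higher and 416 lower at an unadjusted p under 0.05, 2.67% and 4.03% of those tested. Its p ranked 83 among the 10331 genes. By the limits the study set on its differences, a fold above 1.5 or below 0.8 with an unadjusted p under 0.05, *Ackr3* was called lower, as were 1.37% of all genes tested. Groups that do not overlap, with siDerl1 lower, were found for 8.52% of all genes. An exact permutation test on the 3 against 3 values gave a two-sided p of 0.1, the smallest that this design allows.

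The difference in *Ackr3* was of nearly the same size in each pair of samples, at −0.64, −0.68 and −0.58 for numbers 1, 2 and 3. With the replicate number as a block its standard error was 0.16 and its adjusted p 0.127, in a fit in which 0.552% of genes had an adjusted p under 0.05. *Ackr3* kept its direction and stayed past the limits in all 15 alternative fits, with a log2 fold change between −0.74 and −0.54 and an adjusted p between 0.127 and 0.996. Among these, leaving out both samples numbered 1, which stood apart over all genes, gave −0.63. Endothelial cells also express *Ackr3*, and 8 of the 10 endothelial markers were under 1 TPM in every sample, with *Cdh5* and *Cldn5* at 0 throughout. The summed level of that list was 4.41 to 4.89 TPM in siControl and 4.4 to 6.78 TPM in siDerl1 samples. Its part in the *Ackr3* values was not tested.

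*Cxcl12* was at 1.34, 2.26 and 0.98 TPM in siControl samples 1, 2 and 3 and at 2.01, 1.43 and 0.19 TPM in siDerl1 samples 1, 2 and 3. The groups overlapped, and the lowest value was that of siDerl1 sample 3. The means were 1.53 ± 0.660 TPM (SD, n = 3) and 1.21 ± 0.930 TPM (SD, n = 3). The log2 fold change was −0.27 with a 95% interval of −1.20 to 0.67 (limma, adjusted p = 0.938), which spans 0.437-fold to 1.59-fold, so that for the ligand neither a decrease nor an increase of that size could be told from none. Its sign rested on 1 sample, since without siDerl1 sample 3 it was 0.13. Pericytes and fibroblasts are known sources of CXCL12, and 8 of 10 of their markers were under 1 TPM in every sample, with *Rgs5*, *Kcnj8*, *Dcn* and *Lum* at 0. Their summed level was 1.58 to 2.46 TPM in siControl and 3.54 to 3.98 TPM in siDerl1 samples, and its part in the *Cxcl12* values was not tested.

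**Figure D1:**
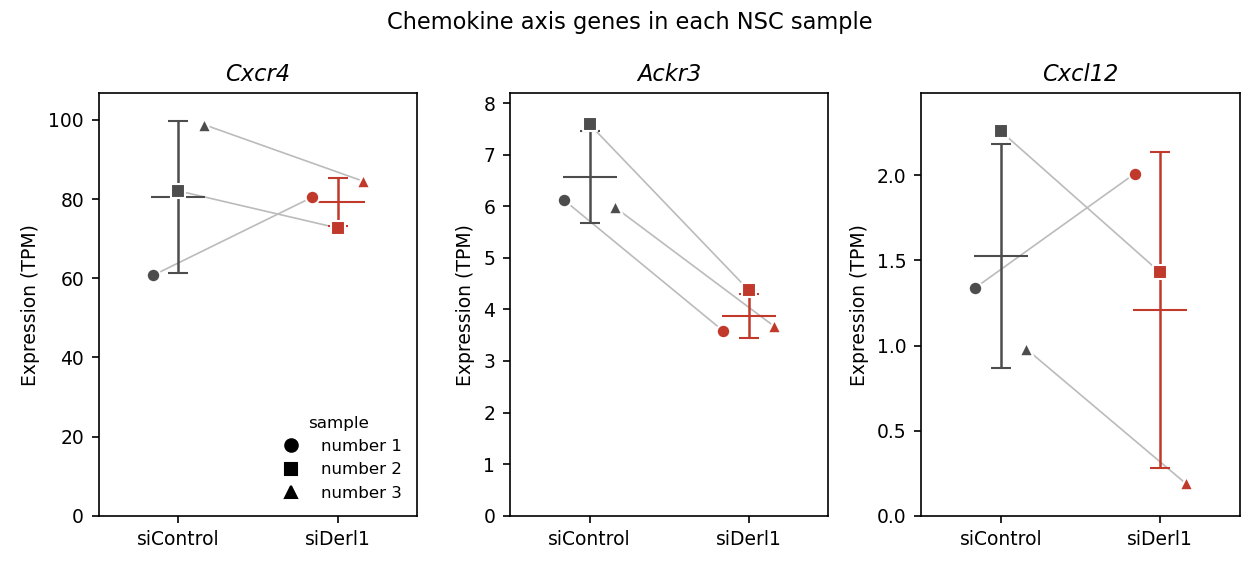
TPM of *Cxcr4*, *Ackr3* and *Cxcl12* (vertical axes, each starting at 0) in siControl (grey) and siDerl1 (red) NSCs, with marker shape for the sample number, grey lines joining samples of the same number, horizontal bars for group means and error bars for the SD (n = 3). The 3 *Ackr3* lines all run down, from between 5.98 and 7.59 TPM to between 3.58 and 4.37 TPM, while *Cxcr4* and *Cxcl12* each have 1 line that runs up and 2 that run down.

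Because TPM is per length, the members can be compared with each other within a sample. *Cxcr4* was 9.92, 10.8 and 16.5 times the level of *Ackr3* in siControl samples 1, 2 and 3 and 22.5, 16.6 and 23.0 times in siDerl1 samples 1, 2 and 3. The ratio was higher in siDerl1 samples, at 20.7 ± 3.54 against 12.4 ± 3.58 (SD, n = 3 each), a difference of 0.76 on the log2 scale, and the groups were only just apart, between siControl sample 3 and siDerl1 sample 2 (two-sided exact permutation p = 0.1, again the lowest value this design can give). *Cxcr4* over *Cxcl12* ranged from 36.3 to 101 in siControl and from 40.0 to 445 in siDerl1 samples (exact p = 0.6). *Ackr3* over *Cxcl12* ranged from 3.36 to 6.10 and from 1.78 to 19.3 (exact p = 1). The order *Cxcr4*, *Ackr3*, *Cxcl12* was kept in all 6 samples. The step from *Ackr3* to *Cxcl12* was the smaller one, and in siDerl1 samples the values of *Cxcl12*, from 0.19 to 2.01 TPM, spread over more than that step in sample 1, where *Ackr3* was at 3.58 TPM.

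**Figure D2:**
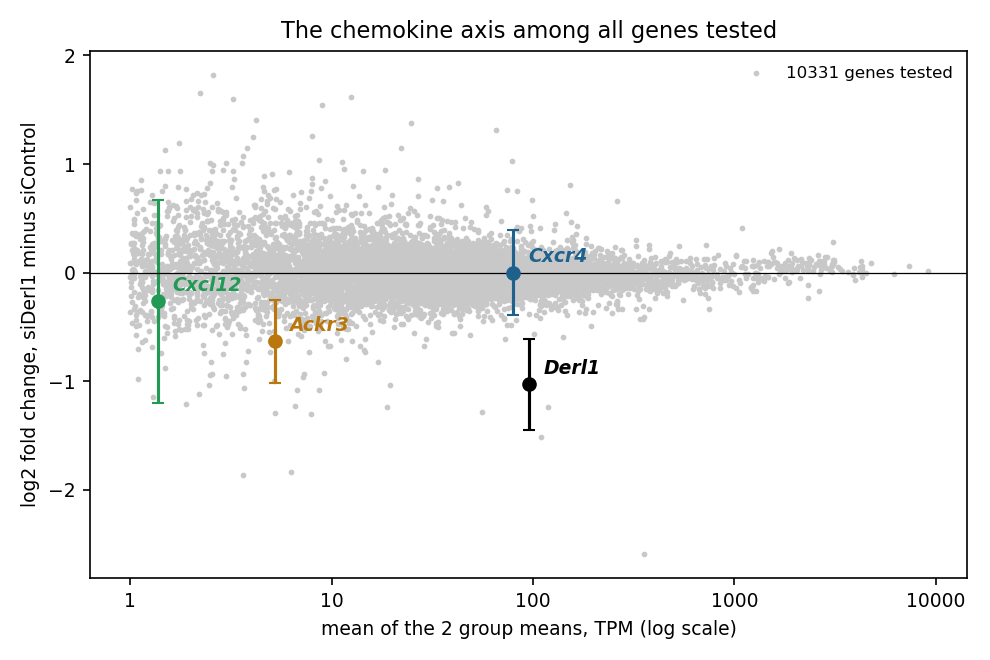
Log2 fold change (siDerl1 minus siControl, log2(TPM + 1)) of the 10331 genes tested (grey points) against the mean of both group means in TPM, on a log axis. Coloured points with 95% intervals from limma mark *Cxcl12*, *Ackr3* and *Cxcr4*, and a black point the targeted *Derl1*. The interval of *Ackr3* (−1.02 to −0.25) lies below 0, and those of *Cxcr4* and *Cxcl12* include 0.

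The bases before the start of each gene are shown because mRNAs of factors for the marked motifs, except TATAAA, are described below. They come from the RefSeq promoter table of the assembly GRCr8, whereas the reads had been mapped to rn6, and run 5′ to 3′ on the gene's strand, at chr13:42634289-42634538 (minus strand) for *Cxcr4*, chr4:152060531-152060780 (plus strand) for *Cxcl12* and chr9:98247104-98247299 (plus strand) for *Ackr3*, whose last 54 bases before the table's start are left off because another annotated start lies there. Capitals mark GGGCGG (the GC box), CGCATGCG (the core of the Nrf1 site), GCGTG (a core of the hypoxia response element) and TATAAA (the TATA box), and a search for ACGTG, the other form of the hypoxia core, found 0 matches in the 3 genes. Both strands were searched, and a motif on the opposite strand appears as its reverse complement.
Cxcr4: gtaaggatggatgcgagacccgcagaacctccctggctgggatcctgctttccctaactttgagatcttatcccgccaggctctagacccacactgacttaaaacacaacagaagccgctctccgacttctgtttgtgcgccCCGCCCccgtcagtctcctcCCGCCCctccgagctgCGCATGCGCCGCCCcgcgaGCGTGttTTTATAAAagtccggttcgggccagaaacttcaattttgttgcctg
Cxcl12: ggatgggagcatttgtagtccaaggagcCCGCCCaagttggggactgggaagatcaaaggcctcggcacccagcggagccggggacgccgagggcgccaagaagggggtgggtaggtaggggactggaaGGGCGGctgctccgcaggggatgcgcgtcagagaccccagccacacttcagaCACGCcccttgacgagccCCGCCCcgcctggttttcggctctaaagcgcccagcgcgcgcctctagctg
Ackr3: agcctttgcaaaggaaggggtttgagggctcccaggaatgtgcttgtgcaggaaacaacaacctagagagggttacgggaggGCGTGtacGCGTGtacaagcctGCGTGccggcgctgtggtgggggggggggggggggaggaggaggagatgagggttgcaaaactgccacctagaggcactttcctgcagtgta

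The *Cxcr4* promoter held 3 GC boxes, 108 to 103, 88 to 83 and 64 to 59 bases before the start, the last of them directly next to a CGCATGCG at 72 to 65. A TATAAA was read on both strands, overlapping, at 46 to 39 bases before the start, and a GCGTG at 53 to 49. *Cxcl12* also had 3 GC boxes, at 222 to 217, 121 to 116 and 51 to 46 bases, with 1 GCGTG at 69 to 65. *Ackr3* differed from both in having 0 GC boxes in its 250 bases and 3 copies of GCGTG, at 168 to 164, 160 to 156 and 146 to 142. Like *Cxcr4* it had a TATAAA, at 54 to 49, in the bases left off. Of 33469 RefSeq promoters of the same length, 30.5% held a GC box, 1.47% CGCATGCG, 25.9% GCGTG, 16.6% ACGTG and 12.9% TATAAA. The *Cxcr4* bases had 57.6% GC and 18 CpG, those of *Cxcl12* 67.6% and 20 CpG, and the 196 printed for *Ackr3* 60.2% and 7 CpG, where the median of all promoters was 51.2% GC. A match is a description of these letters and not evidence of binding.

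Of 13 transcriptional regulators of the axis that were tested, 0 passed an unadjusted p under 0.05 in either direction, where 2.67% of all genes were higher and 4.03% lower. Their median log2 fold change was −0.10, against −0.02 over all genes, but it was −0.17 without siControl sample 1, −0.02 without siControl sample 3 and 0.02 without siDerl1 sample 1. In 2 of the 13 every siDerl1 sample was lower, as in 8.52% of all genes. For single genes the log2 fold change and a p from limma are given in parentheses from here on. *Nrf1*, the factor named for the CGCATGCG element, was at 31.7 ± 3.74 TPM in siControl and 26.6 TPM on average in siDerl1 NSCs (log2 fold change −0.25, unadjusted p = 0.106). *Sp1*, which binds GC boxes, was at 47.5, 48.0 and 50.6 TPM in siControl and 46.2, 41.6 and 43.9 TPM in siDerl1 samples, so that the groups were apart by a small step (log2 fold change −0.15, unadjusted p = 0.0917). *Vhl*, which marks hypoxia-inducible factors for degradation, was likewise apart, at 62.1 against 55.9 TPM (−0.15, unadjusted p = 0.0520). *Hif1a* and *Epas1*, which encode hypoxia-inducible factors, overlapped between the groups, with log2 fold changes of −0.11 and −0.11.

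Besides *Cxcr4* and *Ackr3*, chemokine receptors were hardly expressed. Of the 18 other chemokine receptors in the tables, 13 were at 0 in all 6 samples and 17 stayed under 1 TPM in every sample. The exception was *Ccrl2*, an atypical receptor that binds chemerin, at 1.71, 1.78 and 0.46 TPM in siControl and 1.25, 1.07 and 1.91 TPM in siDerl1 samples (log2 fold change 0.10, limma, adjusted p = 0.968). No value of any of the 18 was above 1.91 TPM, so *Cxcr4* and *Ackr3* stood above the rest of their receptor families in every sample.

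Several other chemokine ligands were more abundant than *Cxcl12*. Those with a mean TPM of at least 1 act on other receptors, except that binding to CXCR4 has been described for CXCL14. Of 35 in the tables, 17 were at 0 in all samples and 10 had a mean TPM of at least 1. All 10 had a positive log2 fold change in siDerl1 NSCs, where 4674 of the 10331 genes tested did, with a median of 0.97. An unadjusted p under 0.05 was reached by 4 of the 10, where 2.67% of all genes were higher at that p. By the limits 3 were called higher, against 0.532% of all genes, and in 2 the groups did not overlap, against 5.09%. The median was 0.56 without siControl sample 1 and 1.645 without siDerl1 sample 1. It was 1.498 with a pseudocount of 0.1 and 0.61 without the filter on low values. *Ccl7* (0.517 TPM on average in siControl, 2.99 TPM in siDerl1) and *Cxcl9* (0.843 and 2.68 TPM) reached a mean TPM of 1 only through their siDerl1 values. The filter thus favoured a positive sign for them.

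*Cxcl14*, which encodes a chemokine expressed by epithelial and neural cells, was at 17.99, 10.7 and 10.2 TPM in siControl samples 1, 2 and 3 and at 48.4, 19.5 and 25.7 TPM in siDerl1 samples 1, 2 and 3. It was higher in all 3 siDerl1 samples, and sample 1 was the highest of each group (log2 fold change 1.14, adjusted p = 0.704 with limma and 0.00884 with the replicate block). That call was lost in the blocked fit of unfiltered genes (adjusted p = 0.104) and with the block and no intensity trend (0.225). *Cxcl16*, a membrane-bound chemokine and the ligand of CXCR6, was at 10.8, 9.96 and 9.60 TPM and at 15.5, 12.03 and 18.2 TPM, again without overlap (0.53, unadjusted p = 0.0131). *Ccl2*, which attracts monocytes, was at 2.28, 5.71 and 6.64 TPM and at 4.94, 26.4 and 29.1 TPM, so that siDerl1 sample 1 lay within the siControl range (1.62, adjusted p = 0.713 and 0.0256 with the block, but 0.165 and 0.238 in those other blocked fits). *Cxcl1*, a neutrophil chemokine, was at 1.55, 0.68 and 2.49 TPM and at 1.51, 8.69 and 10.4 TPM (1.40, unadjusted p = 0.0463).

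The remaining 6 overlapped between the groups. The interferon-induced *Cxcl10* was the most abundant, at 3.65, 72.8 and 73.0 TPM in siControl and 4.74, 138 and 155 TPM in siDerl1 samples, and *Cxcl9*, *Ccl5*, *Ccl7* and *Ccl20* were also lowest in the samples numbered 1, a pattern that *Cxcl12* did not share. *Cx3cl1*, the membrane-bound ligand of CX3CR1, was between 13.9 and 21.4 TPM. Markers of microglia and macrophages, cells that make several of these chemokines, were low, with 8 of 10 under 1 TPM in every sample. *Cx3cr1*, *C1qa* and *C1qb* were at 0, and the summed level was 5.01 to 9.36 TPM in siControl and 5.80 to 7.96 TPM in siDerl1 samples. The part of such cells in the chemokine values was not tested.

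Among 11 tested genes for alternative ligands, co-receptors and cofactors of CXCR4 and ACKR3, the median log2 fold change was −0.05, with no stable sign (0.04 without siControl sample 2 and 0.07 without siDerl1 sample 1). There was 1 gene higher and 1 lower at an unadjusted p under 0.05, where 2.67% and 4.03% of all genes were, and 0 past the limits. *Cd164*, a sialomucin that associates with CXCR4, was at 136, 143 and 142 TPM in siControl and 106, 118 and 123 TPM in siDerl1 samples, lower in every siDerl1 sample (−0.28, unadjusted p = 0.00556, adjusted p = 0.704 with limma). *Mif*, a cytokine that binds both CXCR4 and ACKR3, was at 1422 ± 86.0 and 1613 TPM on average (0.18, unadjusted p = 0.0449), with the reservation that near-identical pseudogene copies could share its reads. This alternative ligand was thus far more abundant as mRNA than *Cxcl12*, at 1.53 TPM in siControl NSCs. *Gja1*, which encodes connexin 43, overlapped between the groups (0.35, unadjusted p = 0.134). The syndecans, heparan sulfate proteoglycans that can hold CXCL12 at the cell surface, overlapped between the groups, with *Sdc3* between 76.6 and 152 TPM.

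Of the proteases that cleave CXCL12, 3 of 12 in the tables were tested. *Mmp14*, a membrane-type matrix metalloproteinase, was at 1.35, 1.49 and 3.0 TPM in siControl and 8.71, 3.69 and 4.64 TPM in siDerl1 samples, higher in every siDerl1 sample and past the limits (1.15, unadjusted p = 0.0103, adjusted p = 0.704 with limma). It was the only one of the 3 called, where 0.532% of all genes were higher past the limits, 5.09% higher without overlap and 2.67% higher at an unadjusted p under 0.05. *Cpm*, a carboxypeptidase, was at 15.3 and 23.0 TPM on average (0.52, unadjusted p = 0.0726), and *Mmp2*, a gelatinase that MMP14 activates, at 51.0, 40.0 and 17.95 TPM against 66.4, 39.3 and 17.4 TPM (0.10, unadjusted p = 0.851), following the sample number.

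Genes for the signalling machinery below CXCR4 showed small differences. Of 42 tested genes for G proteins, kinases and effectors of chemotactic signalling, 1 was higher and 3 were lower at an unadjusted p under 0.05. Of all genes 2.67% were higher and 4.03% lower at that p. None of the 42 passed the limits, and the median was −0.08 (−0.04 without siControl sample 2 and −0.03 without siDerl1 sample 3). *Gnai2*, the Gi subunit that CXCR4 uses in many cells, was at 660, 717 and 691 TPM in siControl and 683, 697 and 690 TPM in siDerl1 samples, with a log2 fold change of 0.00. The 3 that were lower were *Gng5*, a G protein gamma subunit (−0.26, unadjusted p = 0.0193), *Tiam1*, an exchange factor for Rac (−0.25, unadjusted p = 0.0352), and *Pik3ca*, a catalytic subunit of PI3 kinase (−0.18, unadjusted p = 0.0364). In this list 8 genes were lower without overlap, of 42, against 8.52% of all genes.

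ACKR3 acts through arrestins, and both beta-arrestin genes were expressed in both groups without a detectable difference. *Arrb1* was at 34.7, 31.2 and 35.9 TPM in siControl and 37.7, 30.7 and 32.0 TPM in siDerl1 samples, and *Arrb2* at 49.8, 41.7 and 37.4 TPM and at 55.1, 47.8 and 40.6 TPM (log2 fold changes −0.02 and 0.15, unadjusted p = 0.843 and 0.329). Of 14 genes for arrestins, receptor kinases and RGS proteins, the last of which switch G proteins off, the only one at an unadjusted p under 0.05, where 2.67% of all genes were higher, was *Rgs19*, at 38.1, 37.4 and 34.0 TPM against 44.1, 44.7 and 44.5 TPM (0.28, unadjusted p = 0.00819). Next by p were *Rgs10* (−0.27, unadjusted p = 0.106) and *Rgs14* (−0.24, unadjusted p = 0.281), both with overlapping groups. The 33 genes for ubiquitination, sorting and recycling of the receptors had a median of −0.02 (0.01 without siControl sample 2). *Itch*, the ubiquitin ligase known for sending CXCR4 to lysosomes, was at 45.8 and 41.7 TPM on average (−0.13, unadjusted p = 0.167). *Tsg101*, a subunit of the complex that sorts ubiquitinated receptors, was the single gene of that list with an unadjusted p under 0.05 (−0.17, unadjusted p = 0.0481), where 4.03% of all genes were lower. *Lamp1*, a lysosomal membrane protein, and *Eps15*, an endocytic adaptor, were higher in every siDerl1 sample (0.25 and 0.28, unadjusted p = 0.0548 and 0.0749). In all, 4 of the 33 were higher and 1 lower without overlap, where 5.09% and 8.52% of all genes were.

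Other cues that place newborn granule neurons had a median log2 fold change of −0.09 over 34 tested genes (−0.16 without siDerl1 sample 1), with 0 higher and 3 lower at an unadjusted p under 0.05, where 2.67% and 4.03% of all genes were, and 2 lower past the limits, where 1.37% were. The 3 were *Pafah1b1*, which encodes the dynein regulator Lis1 (197 and 170 TPM, −0.21, unadjusted p = 0.00965), *Dcx*, the microtubule protein of migrating neuroblasts, and *Erbb3*, a neuregulin receptor. *Dcx* was at 8.83, 10.9 and 9.57 TPM in siControl and 6.38, 7.10 and 7.63 TPM in siDerl1 samples, lower in every siDerl1 sample and past the limits (−0.42, unadjusted p = 0.0188). *Erbb3* was at 296, 197 and 191 TPM and at 198, 141 and 144 TPM, high in sample 1 of each group and lower in siDerl1 within each pair (−0.49, limma adjusted p = 0.731, and 0.00884 with the replicate block, but 0.104 with the block and no filter and 0.229 with the block and no trend). *Ackr3* had a more negative log2 fold change than each of these 3.

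**Figure D3:**
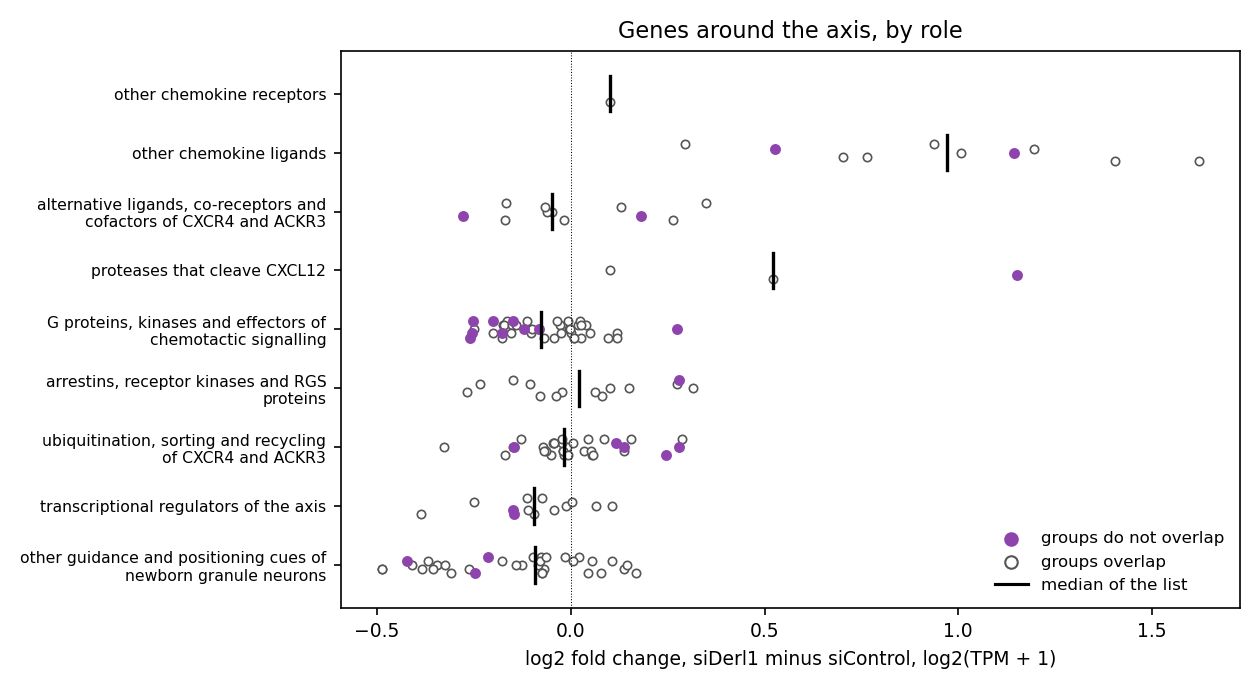
Log2 fold change (siDerl1 minus siControl, horizontal axis) of the tested genes of 9 lists around the axis, 1 point a gene, filled where the groups do not overlap, with a bar at the median of each list. The 10 other chemokine ligands all lie to the right of 0 (median 0.97), and the lists of signalling, trafficking and guidance genes have medians between −0.10 and 0.02.

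The genes whose profile over the 6 samples was most like that of each member differed between the members, among the 9160 genes that averaged 5 TPM or more. For *Cxcr4* they were *Coa4*, a cytochrome c oxidase assembly factor (Pearson's r = 0.991), *Rabgef1*, an exchange factor for Rab5 (0.981), and *Akap7*, an anchor of protein kinase A (0.979). For *Ackr3* they were *Unc45a*, a myosin chaperone (0.990), *Rap2b*, a Ras-like GTPase (0.987), and *Vps39*, a subunit of the lysosomal tethering complex HOPS (0.987). For *Cxcl12* they were *Ampd2*, an AMP deaminase (0.984), *Adamts10*, an extracellular protease (0.98), and *Trappc4*, a subunit of a vesicle tethering complex (0.979). With r above 0.9 there were 97, 170 and 78 genes for *Cxcr4*, *Ackr3* and *Cxcl12*. These are descriptions over only 6 samples, which share their group and sample number, and no p is given.

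The *Ackr3* estimate was the farthest below 0 in every one of the 15 alternatives. *Cxcr4* ranged from −0.20 to 0.16 and changed sign in 4 of 15, which is what an estimate of 0.00 can do, and the sample numbered 1 of siControl, its lowest value, moved it most among the samples left out. *Cxcl12* ranged from −0.66, with a pseudocount of 0.1, to 0.13, above *Cxcr4*, without siDerl1 sample 3.

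**Figure D4:**
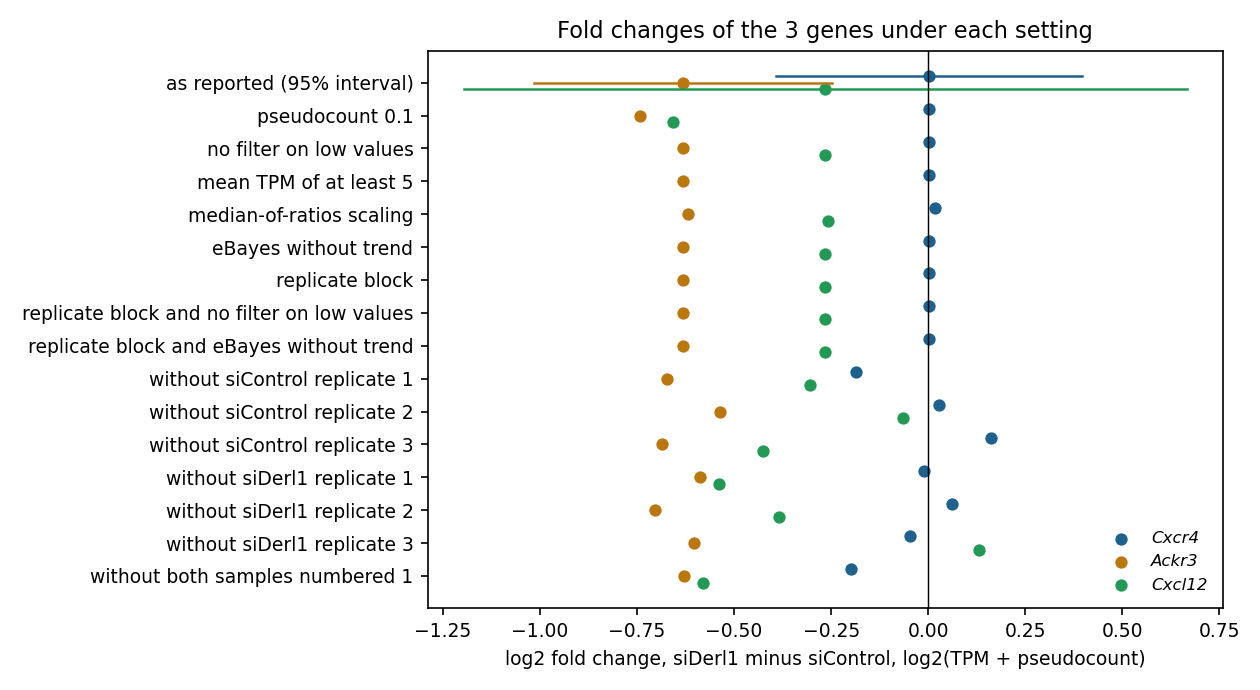
Log2 fold changes of *Cxcr4* (blue), *Ackr3* (orange) and *Cxcl12* (green) as reported, with 95% intervals from limma in the first line, and under each alternative fit. The *Ackr3* points stay between −0.74 and −0.54, those of *Cxcr4* lie on both sides of 0 (−0.20 to 0.16), and *Cxcl12* has no value where a mean TPM of at least 5 was asked for.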

How the data were processed

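RNA-seq of 6 samples of rat hippocampal NSCs, 3 with a control duplex and 3 with a *Derl1* duplex, was used, grouped by the sample titles. The authors made poly(A) selected, strand-specific libraries, used Trimmomatic 0.39 for trimming, STAR 2.7.3a for mapping to rn6 and RSEM 1.3.2 for quantification, and the deposited values are TPM per gene with 2 decimals. edgeR 3.28.1 is also in the submitters' processing notes, for values not used here. The strand setting of the counting is not given in the sources used here. Reads shared by related chemokines could be split between them.

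The members were read by symbol, and log2(TPM + 1) was compared with limma, for genes that averaged 1 TPM or more (version 3.58.1, lmFit, eBayes with an intensity trend, R 4.3.3), and Benjamini-Hochberg adjustment. Exact permutation tests used scipy 1.17.1. The members and the gene lists were chosen with earlier results of these data known, and counts over a list are descriptions. Named are the members, *Derl1*, the 3 genes of each list with the smallest unadjusted p, those past the limits with groups apart, every other chemokine gene averaging 1 TPM or more, and the 3 genes most like each member. *Gnai2*, *Arrb1*, *Arrb2*, *Itch*, *Hif1a*, *Epas1*, *Sdc3* and *Pik3ca* fall outside this rule and were added after their values had been seen. A gene that the rule selects is not reported here. Genes of like level have a mean within a factor of 2 of the member's in that group. Alternatives were the pseudocount, the filter, median-of-ratios scaling, the trend, the replicate block, each sample left out and, chosen after seeing the data, both samples numbered 1 left out. The fits were also run on simulated data with changes of 1 log2 unit, larger than that of *Ackr3*, so the detection of smaller changes was not tested.

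Deviations from the group means correlated between samples of the same number at 0.697, 0.353 and 0.507, across genes, and at up to 0.345 between different numbers. siControl sample 2 correlated about as well with siDerl1 sample 3 (0.345) as with siDerl1 sample 2 (0.353). The check thus does not settle the pairing of numbers 2 and 3. The labels number the samples alike and name no shared day or batch. The reported fit therefore left the numbers out, and the replicate block, which takes them as pairs, is an alternative. At most 0.596% of values were identical between samples. Of the rows, 16337 have an identifier in the RefSeq table of GRCr8, used for names and for promoter letters only.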

Additional observations from a re-analysis of the deposited data

How the results depend on the processing

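The lower *Ackr3* level in siDerl1 samples kept its direction and stayed past the limits, without passing the adjustment, in all 15 alternatives. *Cxcr4* and *Cxcl12* passed neither rule in any. With 1 sample left out, *Cxcr4* ranged from −0.19 (without siControl sample 1) to 0.16, with a change of sign also without siDerl1 sample 1 (−0.01) and siDerl1 sample 3 (−0.05), and it was −0.20 without both samples numbered 1. *Cxcl12* ranged from −0.54 to 0.13, the latter without siDerl1 sample 3, and had no value where a mean of 5 TPM was asked for. Over all genes an adjusted p under 0.05 was reached by 20 higher and 37 lower with the replicate block, by 0 and 2 with the block and no filter, by 0 and 0 with the block and no trend, and by 25 and 10 without both samples numbered 1. Past the limits, 55 higher and 142 lower became 24 higher at a mean of 5 TPM or more, 116 and 249 with the block, 138 and 314 with the block and no filter, 104 and 272 with the block and no trend, 52 to 100 and 115 to 252 with 1 sample left out, and 135 and 277 without both samples numbered 1. The cause was not tested. By adjusted p, the block changed the call of *Derl1* (adjusted p 0.497 to 0.00884), *Cxcl14*, *Ccl2* and *Erbb3*, and of no other gene named, and these 4 calls were lost in both other blocked fits (adjusted p 0.104 to 0.238). TPM hides the read depth, and mRNA says nothing of receptor protein at the cell surface. With 3 samples a group, 1 line and 1 duplex, an effect of the duplex itself cannot be told apart from loss of Derlin-1.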
